A study of Mus musculus with 6 samples.

Results

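Core and primed pluripotency genes were measured in mouse thyroid organoids by bulk RNA sequencing. They were taken as the 10 rows of the raw count table named Pou5f1, Sox2, Utf1, Otx2, Pou3f1, Tcf15, Foxd3, Zic2, Dppa4 and Dppa5a, out of 25239 gene rows in all, and all 10 passed the filter on low counts. The organoids were grown from the G4 RosaLuc mouse embryonic stem cell line, from isolated clones with a transgene inserted at the Rosa26 locus. Its TRE-Nkx2-1-Pax8 part expressed the thyroid factors Nkx2-1 and Pax8 under doxycycline, and its bTg-NES-BrafV637E-ERT2 part expressed a tamoxifen-activated Braf V637E fusion, the mouse counterpart of human BRAF V600E, from a bovine thyroglobulin promoter that is active in thyroid follicular cells. All 6 libraries came from organoids of this genotype at day 31, after doxycycline at 1 µg/ml for 5 days and then 8-Br-cAMP, a cell-permeable cAMP analog, and were made from follicle-enriched material in which other cells of the culture remained. The cAMP group received 8-Br-cAMP without 4-hydroxytamoxifen (by the study's methods, with ethanol as vehicle), so its organoids also carried the uninduced fusion. The 4OHT group received 8-Br-cAMP with 1 µM 4-hydroxytamoxifen for 5 days, and the PD+LY group received both together with 250 nM of the MEK inhibitor PD0325901 and 5 µM of the PI3K inhibitor LY204002 for 3 days. In the study's drug experiments 4-hydroxytamoxifen was also given alone before the inhibitors, so that PD+LY may differ from 4OHT in its total time in 4-hydroxytamoxifen as well, and the effects of this and of the inhibitors cannot be told apart. Each group had 2 libraries, each from pooled wells, and nothing in the labels says whether the wells came from separate differentiations, so that p-values measure the spread between these libraries, which may be technical.

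Pluripotent cells of the mouse embryo pass from a naive state, through a formative state, to a primed epiblast state. Pou5f1 (Oct4) and Sox2 are transcribed in all of these states and bind DNA together, whereas Otx2, Pou3f1 (Oct6), Tcf15, Foxd3 and Zic2 belong to the exit from the naive state, a step that depends on FGF and ERK signaling. Several of these genes are used again in later lineages, Sox2, Otx2, Pou3f1 and Zic2 in the nervous system, Foxd3 in the neural crest and Tcf15 in the paraxial mesoderm, and Pou5f1, Utf1 and Dppa4 are also known from germ cells.

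The libraries held between 14898409 and 20637959 counted reads, so that 1 read was worth 0.0485 to 0.0671 CPM, the unit of reads of a gene relative to all counted reads of its library. Thyroglobulin (Tg) was counted at 1565 and 1021 CPM in the cAMP libraries, at 514 and 693 in the 4OHT libraries and at 1869 and 907 in the PD+LY libraries, so that this thyroid marker was present in every library, and the induced factors Nkx2-1 and Pax8 were at 9.54 to 15.1 and 13.7 to 20.9 CPM. The labels name the cell type as embryonic stem cells, and Pou5f1, Sox2 and Nanog were above 200 CPM in all 6 libraries. Endogenous Braf and the fusion were counted in 1 row, at 95.3 and 85.4 CPM in cAMP, 61.7 and 61.4 in 4OHT and 59.2 and 48.1 in PD+LY, and since 4-hydroxytamoxifen acts on the fusion protein, this row does not check the induction.

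By level per kilobase of exon (RPKM), the 10 genes ranged over 3 orders of magnitude. Dppa5a was the highest at a mean of 2224 RPKM over the 6 libraries, rank 7 of 19165 genes with a length and a count. It was followed by Pou5f1 at 316, Sox2 at 146, Utf1 at 125, Dppa4 at 56.4, Otx2 at 34.6, Zic2 at 23.4, Tcf15 at 6.08, Pou3f1 at 2.22 and Foxd3 at 1.96 RPKM. Sox2 and Utf1 kept their order in 4 of the 6 libraries, as did Pou3f1 and Foxd3, so neither pair was separated beyond its spread, and the ranges over all libraries also overlapped for Otx2 with Zic2 and for Tcf15 with Pou3f1, although these kept their order in each of the 6 libraries. The genes also differed in how far they moved. The highest library exceeded the lowest by 14.0-fold for Pou3f1, 6.12-fold for Tcf15 and 3.04-fold for Utf1, but by 1.20-fold for Dppa4, 1.25-fold for Pou5f1 and 1.29-fold for Sox2.

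**Figure D1:**
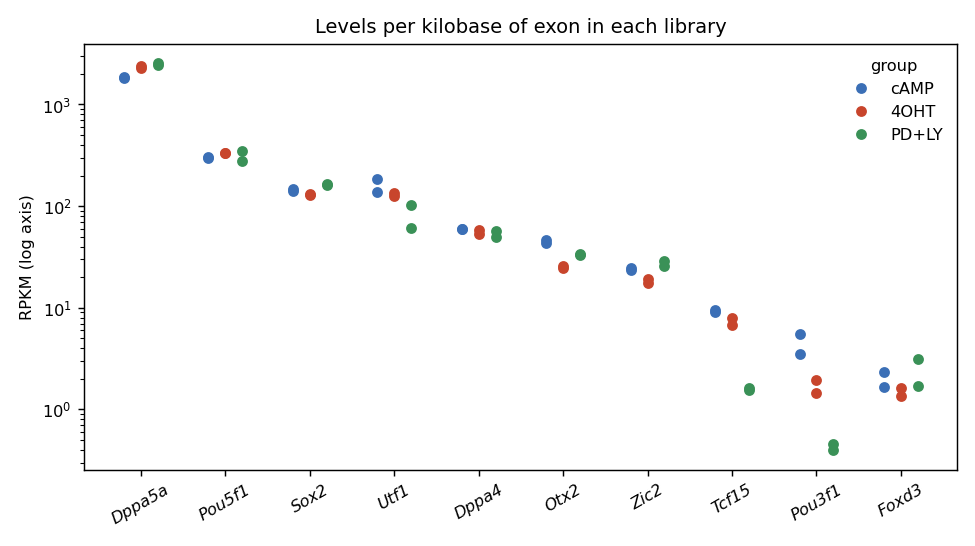
RPKM (log axis) of each of the 10 genes in the 6 libraries, 1 point a library, coloured by group, with genes in order of their mean. Pou3f1 and Tcf15 spread the furthest down, to 0.397 and 1.56 RPKM in PD+LY. Dppa5a runs from 1827 to 2540 and Pou5f1 from 279 to 350 RPKM.

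The question put to each comparison was how these genes stood. In 4OHT against cAMP they were read after 4-hydroxytamoxifen, given to activate Braf V637E. PD+LY, set against 4OHT and against cAMP, was read for MEK and PI3K inhibition with 4-hydroxytamoxifen present. No library had 4-hydroxytamoxifen without the fusion, so effects of the drug itself and of Braf V637E cannot be told apart. The comparisons share libraries and are therefore not independent. A change was called at a Benjamini-Hochberg adjusted p under 0.05 in edgeR's quasi-likelihood test over 15256 genes, and as a differentially expressed gene (DEG) where it was also at least 2-fold. In bulk samples, fewer cells of a type and less RNA per cell cannot be told apart, which holds for every level below.

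In 4OHT against cAMP, Otx2, Pou3f1 and Zic2 fell, and Dppa5a rose. That is 4 of the 10 genes at adjusted p under 0.05, where the background was 8.39% of all genes tested, and Pou3f1 was the 1 DEG, lower in 4OHT, where the background was 2.67%, of which 1.51% of all genes were lower. The libraries of the groups did not overlap for any of the 10 genes, 8 lower and 2 higher in 4OHT, beside 58.5% of all genes. In PD+LY against 4OHT, Sox2, Otx2 and Zic2 rose and Utf1, Pou3f1 and Tcf15 fell, 6 of 10 beside a background of 22.7%, and Pou3f1 and Tcf15 were DEGs, both lower, beside 7.26% of all genes, 4.9% lower and 2.35% higher. Here 8 of the 10 genes did not overlap between groups, beside 62.3% of all genes. In PD+LY against cAMP, Utf1, Otx2, Pou3f1 and Tcf15 fell and Dppa5a rose, 5 of 10 beside a background of 25.7%, with Pou3f1 and Tcf15 again DEGs, both lower, beside 9.24% of all genes and 6.24% lower. For 8 of the 10 genes the groups did not overlap, beside 61.4% of all genes. The median log2 fold change of the 10 genes was −0.33, 0.02 and −0.05 in these comparisons in turn, and that of all genes was −0.0021, 0.0077 and 0.0049.

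**Figure D2:**
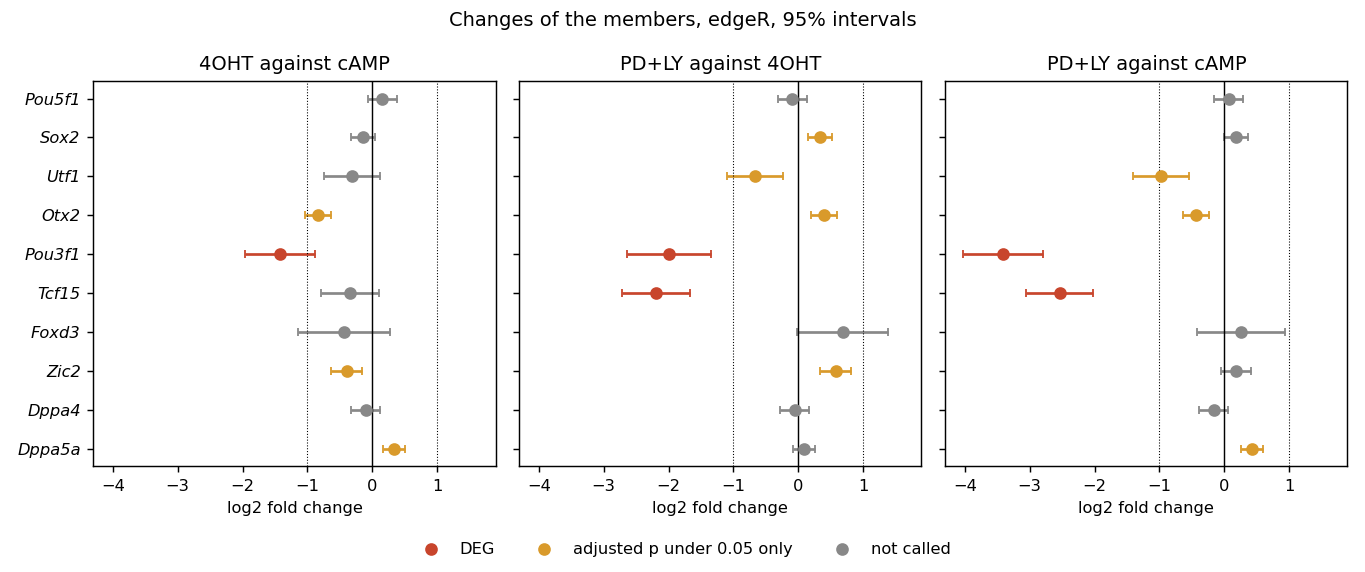
log2 fold change of each gene in the 3 comparisons, with 95% confidence intervals from edgeR over 2 libraries a group. Colours mark DEGs, genes at adjusted p under 0.05 alone and genes not called, and dotted lines mark a 2-fold change. Pou3f1 lies at −1.42, −1.995 and −3.42 and Tcf15 at −0.34, −2.20 and −2.54, while the intervals of Pou5f1 and Dppa4 cross 0 in all 3.

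Pou5f1, the POU-homeodomain factor at the center of the pluripotency network, was counted at 663 and 686 CPM in cAMP, at 754 and 749.7 in 4OHT and at 627 and 786 in PD+LY. The 4OHT libraries lay just above the cAMP libraries, and the PD+LY libraries spanned both other groups. The log2 fold change was 0.16 (SE 0.10, 95% interval −0.07 to 0.38, edgeR adjusted p = 0.388) in 4OHT against cAMP, −0.09 (interval −0.31 to 0.13, adjusted p = 0.563) in PD+LY against 4OHT and 0.07 (interval −0.16 to 0.29, adjusted p = 0.675) in PD+LY against cAMP. The sign of both PD+LY comparisons rested on single PD+LY libraries. Without PD+LY replicate 1 the change against 4OHT was 0.06, and without PD+LY replicate 2 it was −0.26 (edgeR adjusted p = 0.0324), while the change against cAMP was then −0.10. PD+LY replicate 1, the library with less Pou5f1, held more Tg than replicate 2, 1869 against 907 CPM, and the part of this difference between the replicates in the Pou5f1 values was not tested. The gene lies on chr17:35506018-35510772 (GRCm38, plus strand), with 317 of its exon bases (14.1%) shared with the antisense gene Gm19553. Counting ignored the strand, so reads of these genes could not be told apart in the shared bases. The upstream promoter window of Pou5f1 in RefSeq (GRCm38.p6, chr17:35505782-35506081) runs from 250 bases before to 50 bases after a transcription start. It is shown because Pou5f1 is the reference against which the other genes are read below, with a GC box (GGGCGG, the Sp1 motif) in capitals.
Pou5f1 promoter: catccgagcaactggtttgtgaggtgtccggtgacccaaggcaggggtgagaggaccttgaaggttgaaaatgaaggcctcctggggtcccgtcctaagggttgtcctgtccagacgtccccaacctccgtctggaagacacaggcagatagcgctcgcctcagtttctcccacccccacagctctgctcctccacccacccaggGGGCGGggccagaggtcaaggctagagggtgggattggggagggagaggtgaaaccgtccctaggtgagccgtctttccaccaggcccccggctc
The GC box began 45 bases before the start. This motif, searched on both strands, was in 35.7% of 32851 RefSeq windows of the same length.

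Sox2, the HMG-box partner of Pou5f1 that is also used in neural progenitors and foregut, was counted at 306 and 288 CPM in cAMP, at 264 and 273 in 4OHT and at 334 and 342 in PD+LY. The 3 groups did not overlap, 4OHT being the lowest and PD+LY the highest. The lower level in 4OHT than in cAMP did not pass the test (log2 fold change −0.15, interval −0.33 to 0.04, edgeR adjusted p = 0.320). Sox2 rose 1.26-fold in PD+LY against 4OHT (log2 fold change 0.33, SE 0.08, edgeR adjusted p = 0.0154), and PD+LY against cAMP gave 0.18 (interval 0.0004 to 0.37, adjusted p = 0.130). The rise was no longer called without either 4OHT library, although its size was 0.31 without replicate 1 and 0.36 without replicate 2. Sox2 has a single exon, on chr3:34650405-34652461 (plus strand). Its promoter window (chr3:34649745-34650044, plus strand) is shown for the octamer core ATGCAAA, the motif of POU factors such as Pou5f1 and Pou3f1, which stands in capitals with 2 GC boxes (GGGCGG or CCGCCC) and an ETS motif (CCGGAA).
Sox2 promoter: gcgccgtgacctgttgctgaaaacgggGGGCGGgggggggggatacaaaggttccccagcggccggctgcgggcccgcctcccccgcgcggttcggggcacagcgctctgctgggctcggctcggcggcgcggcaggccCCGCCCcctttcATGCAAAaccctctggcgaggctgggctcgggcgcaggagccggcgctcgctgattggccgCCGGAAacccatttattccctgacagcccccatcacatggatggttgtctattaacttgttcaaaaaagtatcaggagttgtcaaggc
The octamer core began 99 bases before the RefSeq start, and was in 4.63% of all windows. That start lies upstream of the gene bounds printed above, which come from another annotation. The ETS motif was in 14.9% of them. A match is a description of the letters and not of binding.

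Utf1, a chromatin-associated factor of undifferentiated cells whose enhancer is bound by Pou5f1 and Sox2, fell in PD+LY. It was counted at 170 and 227 CPM in cAMP, at 156 and 164 in 4OHT and at 74.6 and 127 in PD+LY. The groups stepped down without overlap, but the replicates of cAMP and of PD+LY lay far apart. The change from cAMP to 4OHT did not pass the test (log2 fold change −0.31, SE 0.20, edgeR adjusted p = 0.368), and was −0.08 without cAMP replicate 2 and −0.51 without cAMP replicate 1. Without a filter on low counts it was called (−0.31, edgeR adjusted p = 0.0350). In PD+LY Utf1 was 1.97-fold lower than in cAMP (log2 fold change −0.98, SE 0.20, edgeR adjusted p = 0.00382) and 1.59-fold lower than in 4OHT (−0.67, SE 0.20, adjusted p = 0.0313). The fall against cAMP was called without any single library, at −0.65 without PD+LY replicate 1 and −1.41 without PD+LY replicate 2. The fall against 4OHT was not called by DESeq2 (−0.67, adjusted p = 0.163). It was also no longer called without PD+LY replicate 1 (−0.34) or without either 4OHT library (−0.70 and −0.63), while without PD+LY replicate 2 it was −1.10. The lower PD+LY library was again replicate 1, the library with more Tg. Other pluripotency genes went both ways between these replicates. Nanog was at 692 CPM in replicate 1 and 643 in replicate 2, and Sall4 was at 334 and 439 CPM. Utf1 lies on chr7:139943789-139945112 (plus strand), and its promoter window (chr7:139943606-139943905) is shown as the most GC-box-rich of those read here, with all its GC boxes in capitals.
Utf1 promoter: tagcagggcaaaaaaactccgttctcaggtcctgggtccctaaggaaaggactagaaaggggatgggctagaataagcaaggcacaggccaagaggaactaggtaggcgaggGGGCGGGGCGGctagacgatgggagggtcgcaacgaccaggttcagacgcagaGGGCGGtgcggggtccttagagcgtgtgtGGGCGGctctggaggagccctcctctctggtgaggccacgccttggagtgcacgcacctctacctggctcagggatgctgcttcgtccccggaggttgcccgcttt
It held 4 GC boxes, beginning 138, 133, 85 and 56 bases before the RefSeq start, the first 2 of which share a base. That start lies inside the gene bounds printed above.

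Otx2, a homeodomain factor that moves Pou5f1 to new enhancers at the exit from the naive state and later patterns the forebrain, fell in 4OHT and rose in part in PD+LY. It was counted at 198 and 183 CPM in cAMP, at 108 and 105 in 4OHT and at 142 and 139 in PD+LY. Replicates lay close together and the 3 groups were apart, with PD+LY between the others. Otx2 was 1.79-fold lower in 4OHT than in cAMP (log2 fold change −0.84, SE 0.09, edgeR adjusted p = 0.000284), and this was called under every alternative run. It was 1.32-fold higher in PD+LY than in 4OHT (0.40, SE 0.09, adjusted p = 0.00885) and still 1.35-fold lower in PD+LY than in cAMP (−0.44, SE 0.09, adjusted p = 0.00421). The rise against 4OHT was no longer called without either 4OHT library (0.43 and 0.38), nor was the fall against cAMP without cAMP replicate 1 (−0.38). Otx2 lies on chr14:48657677-48673819 (minus strand), where 154 bases of its exons are shared with Otx2os1 on the other strand, a row with 78 counts in all 6 libraries together. RefSeq gives 4 start sites, and the furthest upstream window (chr14:48667595-48667894, minus strand, printed 5′ to 3′ of the gene) is shown as a contrast in base composition, 41.7% GC against 62.0% for Utf1 and 66.3% for Sox2, with a TATA-like TATAAA in capitals.
Otx2 promoter: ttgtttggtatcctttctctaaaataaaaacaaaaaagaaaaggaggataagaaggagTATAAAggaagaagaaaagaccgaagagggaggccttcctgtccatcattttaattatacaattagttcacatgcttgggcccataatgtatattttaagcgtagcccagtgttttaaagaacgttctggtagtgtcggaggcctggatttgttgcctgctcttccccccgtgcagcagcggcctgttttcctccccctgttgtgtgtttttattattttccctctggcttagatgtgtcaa
That motif lay 192 bases before this RefSeq start, which is inside the gene bounds printed above, and was in 13.6% of all windows.

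Pou3f1, a POU factor of the primed epiblast and of later neural and glial cells, fell in each comparison and moved the furthest of the 10 genes. Its reads numbered 216 and 440 in cAMP, 84 and 136 in 4OHT and 30 and 36 in PD+LY, or 13.6 and 21.4, 5.60 and 7.46, and 1.53 and 1.75 CPM. The 3 groups did not overlap, and the lowest cAMP library stood above both 4OHT libraries, which stood above both PD+LY libraries. Pou3f1 was 2.68-fold lower in 4OHT than in cAMP (log2 fold change −1.42, SE 0.24, edgeR adjusted p = 0.00521). It was 3.99-fold lower in PD+LY than in 4OHT (−1.995, SE 0.30, adjusted p = 0.000717) and 10.7-fold lower in PD+LY than in cAMP (−3.42, SE 0.28, adjusted p = 8.98e-06). The fall in 4OHT was no longer called without cAMP replicate 2 (−1.05) or without 4OHT replicate 1 (−1.23), whereas both PD+LY changes were called under every alternative run. Pou3f1 is a single-exon gene on chr4:124656807-124660655 (plus strand), with 330 of its exon bases shared with the antisense gene Gm2164. Counting ignored the strand, so reads from that gene and from Pou3f1 could not be told apart in the shared bases.

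Tcf15, a basic helix-loop-helix factor of cells leaving the naive state and later of paraxial mesoderm, fell in PD+LY. It was counted with 141 and 192 reads in cAMP, 116 and 122 in 4OHT and 30 and 33 in PD+LY, or 8.86 and 9.35, 7.74 and 6.69, and 1.53 and 1.60 CPM. The cAMP and 4OHT libraries lay near each other and far above both PD+LY libraries. In 4OHT it differed from cAMP by −0.34 on the log2 scale (interval −0.79 to 0.11, edgeR adjusted p = 0.348). Tcf15 was 4.58-fold lower in PD+LY than in 4OHT (−2.20, SE 0.24, adjusted p = 0.000108) and 5.80-fold lower than in cAMP (−2.54, SE 0.24, adjusted p = 2.16e-05), and both falls were called under every alternative run. Tcf15 is on chr2:152143561-152149097 (plus strand), and no other annotated transcript matched it at 90% identity over 100 bases. The summed level of 10 paraxial mesoderm markers was 4.53 to 5.78 CPM in cAMP, 6.27 to 6.85 in 4OHT and 2.95 to 3.21 in PD+LY, and of the 5 that passed the filter, Meox1 fell in PD+LY against cAMP and Foxc2 rose in 4OHT against cAMP (edgeR adjusted p = 0.0300 and 0.0473), while DESeq2 called 0 of them in either comparison. The part of such cells in the Tcf15 values was not tested.

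Foxd3 and Zic2, 2 further factors of enhancers that become active in the epiblast, had their lowest means in 4OHT. Foxd3, a forkhead factor also known from the neural crest, had the fewest reads with 62 and 111 in cAMP, 47 and 69 in 4OHT and 77 and 149 in PD+LY, or 3.90 and 5.41, 3.13 and 3.78, and 3.92 and 7.24 CPM. Its replicates differed as much as its groups. The log2 fold changes were −0.43 (interval −1.14 to 0.28), 0.69 (−0.01 to 1.39) and 0.26 (−0.42 to 0.93) for 4OHT against cAMP and then for PD+LY against each of these groups, 4OHT first (edgeR adjusted p = 0.462, 0.142 and 0.584). The difference from 4OHT was called without a filter on low counts (0.69, edgeR adjusted p = 0.0426) and without PD+LY replicate 1 (1.06, adjusted p = 0.0226), and was 0.18 without PD+LY replicate 2. Against cAMP the change was −0.25 without that library and 0.63 without PD+LY replicate 1. Foxd3 is a single-exon gene on chr4:99656299-99658622 (plus strand). A stretch of 315 bases was 90.5% identical in Foxd1, a row with 25 counts over the 6 libraries. Its promoter window held a cAMP response element (TGACGTCA) 233 bases before the start, found in 1.79% of all windows, and a CACGTG E-box, found in 7.15%. The neural crest markers summed to 76.3 to 83.9 CPM in cAMP, 76.7 to 78.7 in 4OHT and 75.2 CPM in both PD+LY libraries, but Erbb3 alone made up 63.0 to 70.2 CPM of this in each library, and the other 9 markers summed to 11.6 to 13.7, 13.0 to 13.7 and 9.28 to 11.7 CPM.

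Zic2, a zinc-finger factor that binds enhancers in pluripotent cells and later acts in the neural tube, was counted at 67.8 and 71.7 CPM in cAMP, at 50.5 and 55.5 in 4OHT and at 74.6 and 83.7 in PD+LY. The 4OHT libraries were below all 4 others. Zic2 was 1.32-fold lower in 4OHT than in cAMP (log2 fold change −0.40, SE 0.11, edgeR adjusted p = 0.0469) and 1.49-fold higher in PD+LY than in 4OHT (0.58, SE 0.11, adjusted p = 0.00329), while PD+LY against cAMP gave 0.18 (interval −0.06 to 0.42, adjusted p = 0.247). The fall in 4OHT was no longer called when any 1 of the 4 libraries compared was left out. Its size was −0.44 without cAMP replicate 1, −0.35 without cAMP replicate 2, −0.33 without 4OHT replicate 1 and −0.46 without 4OHT replicate 2. The rise in PD+LY was no longer called without 4OHT replicate 1 (0.52). Zic2 lies on chr14:122475435-122479852 (plus strand).

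**Figure D3:**
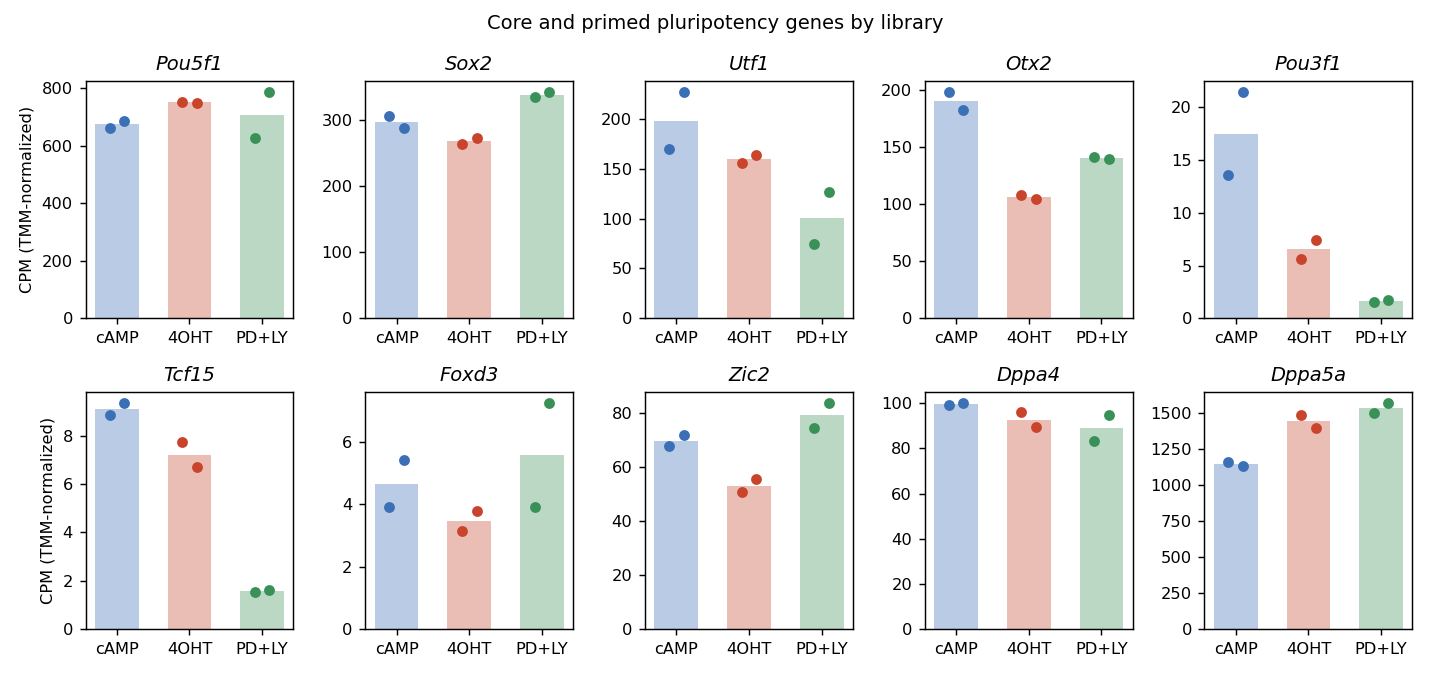
CPM of each gene by group on axes from 0. Bars are means of 2 libraries and points are the libraries. Pou3f1 steps down from 13.6 and 21.4 to 5.60 and 7.46 and to 1.53 and 1.75 CPM, Tcf15 drops in PD+LY alone, Otx2 and Zic2 are lowest in 4OHT, and Dppa5a is lowest in cAMP.

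Dppa4 and Dppa5a are developmental pluripotency-associated genes of early embryos and embryonic stem cells. Dppa4, a SAP-domain chromatin protein that works with Dppa2 at developmental promoters, was counted at 99.01 and 100.1 CPM in cAMP, at 96.2 and 89.4 in 4OHT and at 83.4 and 94.7 in PD+LY. It had the narrowest range of the 10 genes over the 6 libraries. Its log2 fold changes were −0.10 (interval −0.32 to 0.12), −0.06 (−0.28 to 0.16) and −0.16 (−0.38 to 0.06), with edgeR adjusted p = 0.588, 0.720 and 0.275 in the same order as above. Its partner Dppa2 likewise was not called in any of the 3 comparisons (−0.12, −0.05 and −0.17).

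Dppa5a, a KH-domain RNA-binding protein, was counted at 1164 and 1131 CPM in cAMP, at 1489.7 and 1402 in 4OHT and at 1502 and 1572 in PD+LY. Both cAMP libraries were below the other 4. Dppa5a was 1.26-fold higher in 4OHT than in cAMP (log2 fold change 0.33, SE 0.08, edgeR adjusted p = 0.0224) and 1.34-fold higher in PD+LY than in cAMP (0.42, SE 0.08, adjusted p = 0.00210), and PD+LY against 4OHT gave 0.09 (interval −0.08 to 0.26, adjusted p = 0.440). The rise in 4OHT was no longer called when any 1 of the 4 libraries compared was left out. Its size was 0.35 and 0.32 without cAMP replicates 1 and 2 and 0.29 and 0.38 without 4OHT replicates 1 and 2. The rise in PD+LY against cAMP was called under every alternative run.

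Near-identical copies limit what the levels of these last 2 genes count. Transcripts of 10 other annotated genes, 8 of them pseudogenes, matched Dppa5a (chr9:78367052-78368177, minus strand) at 90% identity or more over at least 100 bases, and 2 pseudogenes matched Dppa4 (chr16:48283733-48294237, plus strand). How reads that map to several places were counted is not given in the sources used here, so both levels are uncertain to that extent. The first 100 coding bases of Dppa5a (chr9:78368000-78368099) are shown against the processed pseudogene Gm6083 (gene at chr5:29538153-29538509), with the differing bases in capitals.
Dppa5a: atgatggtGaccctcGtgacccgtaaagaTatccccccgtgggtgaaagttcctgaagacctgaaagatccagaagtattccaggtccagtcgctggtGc
Gm6083: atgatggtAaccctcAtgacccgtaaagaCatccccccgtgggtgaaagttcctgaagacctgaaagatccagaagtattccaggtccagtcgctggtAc
These differed at 4 of 100 bases, and the Gm6083 row held 41 counts over the 6 libraries. The other matching gene with a row was the protein-coding Pigp, 95.9% identical over 417 bases, with 1211 counts. Coding bases 360 to 459 of Dppa4 (within chr16:48289378-48291112, across an intron) are shown in the same way against Gm14058 (gene at chr2:122214620-122215354, minus strand).
Dppa4: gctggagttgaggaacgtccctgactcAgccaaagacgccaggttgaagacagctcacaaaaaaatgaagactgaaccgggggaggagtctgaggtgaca
Gm14058: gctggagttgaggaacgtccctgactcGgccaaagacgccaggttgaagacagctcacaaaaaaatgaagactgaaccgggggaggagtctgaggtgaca
These differed at 1 base, so a read that does not cover that base matches both genes.

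Levels were also read within each library as a percentage of the Pou5f1 CPM, which cancels any change that Pou5f1 shares with the other genes. Pou3f1, Tcf15, Otx2, Utf1, Zic2 and Dppa5a still differed between groups. Pou3f1 was at 2.05% and 3.12% of Pou5f1 in cAMP, at 0.743% and 0.995% in 4OHT and at 0.244% and 0.223% in PD+LY. Tcf15 was at 1.34% and 1.36% in cAMP, 1.03% and 0.892% in 4OHT and 0.244% and 0.204% in PD+LY. The groups stayed apart for both genes. Otx2 was at 29.9% and 26.7% in cAMP, 14.4% and 14.0% in 4OHT and 22.6% and 17.7% in PD+LY. Utf1 was at 25.7% and 33.1% in cAMP, 20.7% and 21.9% in 4OHT and 11.9% and 16.1% in PD+LY, also without overlap. The replicate difference of Utf1 in PD+LY was thus smaller relative to Pou5f1 than in CPM. Zic2 was at 10.2% and 10.4% in cAMP, 6.71% and 7.40% in 4OHT and 11.9% and 10.6% in PD+LY. Dppa5a was at 176% and 165% in cAMP, 198% and 187% in 4OHT and 240% and 200% in PD+LY. The groups did not overlap for Zic2 or Dppa5a. Dppa4 stayed between 11.9% and 14.9%. Sox2 was at 46.17% and 42.03% in cAMP and at 53.25% and 43.47% in PD+LY, so that these groups overlapped, unlike in CPM. Foxd3 was at 0.588% and 0.788% in cAMP and at 0.625% and 0.922% in PD+LY, and overlapped as well. For both genes the 4OHT libraries were below all others. No test was run on these ratios, and the share of all genes without overlap was not computed for them.

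Other genes of the pluripotency network, in lists chosen with earlier results of these data known, did not move as 1 group. Of 16 other general pluripotency genes, 5 fell and 0 rose in 4OHT against cAMP (edgeR, with 7 lower and 1 higher at an unadjusted p under 0.05, and 6 and 0 by DESeq2). PD+LY raised 4 and lowered 4 of them relative to 4OHT, and raised 5 and lowered 6 relative to cAMP, with medians over the 3 comparisons of −0.15, 0.14 and −0.21. Of all genes tested, 4.04% rose and 4.35% fell in 4OHT against cAMP, 10.7% and 12.1% from 4OHT to PD+LY, and 12.1% and 13.7% from cAMP to PD+LY. Lin28a and Lin28b, RNA-binding inhibitors of let-7 processing, fell furthest in PD+LY against cAMP (log2 fold change −2.35, edgeR adjusted p = 6.85e-08, and −2.91, adjusted p = 3.19e-05), followed by the adhesion protein gene Epcam (−1.28, adjusted p = 4.14e-06). Lin28a was at 342 and 374 CPM in cAMP, 158 and 171 in 4OHT and 74.7 and 65.6 in PD+LY. Tdgf1, the Nodal co-receptor, fell and Mycn, a growth-promoting MYC factor, rose under PD+LY relative to 4OHT (−0.82, adjusted p = 0.000397, and 0.80, adjusted p = 0.00101).

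The other formative and primed epiblast genes were mostly lower in 4OHT and in PD+LY than in cAMP. Of 16 such genes 15 passed the filter, and 12 fell and 0 rose in 4OHT against cAMP by edgeR (median −1.34, with 15 lower and 0 higher at an unadjusted p under 0.05, and 12 and 0 by DESeq2), beside 4.35% of all genes that fell and 4.04% that rose. Relative to 4OHT, 2 rose and 5 fell in PD+LY (median −0.37), beside 10.7% and 12.1%, and in PD+LY against cAMP 12 fell and 0 rose (median −1.71, with 12 and 0 at an unadjusted p, and 11 and 0 by DESeq2), beside 13.7% and 12.1%. Fgf5, the classical marker of the post-implantation epiblast, was at 11.6 and 17.1 CPM in cAMP, 1.00 and 2.19 in 4OHT and 1.43 and 1.17 in PD+LY (log2 fold change −3.14 in 4OHT against cAMP, edgeR adjusted p = 0.000238). The Nodal antagonist Cer1 had 104 and 308 reads in cAMP, 0 and 2 in 4OHT and 0 and 0 in PD+LY, where it was at least 72.1-fold lower than in cAMP against a floor of 3 counts a library. Among the others named by size, the neural and epiblast factor Sox3 fell in 4OHT against cAMP (−2.31, adjusted p = 0.00897). Relative to 4OHT, the mesendoderm factor Eomes and the methyltransferase Dnmt3b fell in PD+LY (−1.28, adjusted p = 0.00840, and −0.73, adjusted p = 0.000772) while Nodal rose (0.62, adjusted p = 0.0177). The primitive streak factor T had 14 and 21 reads in cAMP, 0 and 8 in 4OHT and 2 and 2 in PD+LY.

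Of the 12 naive pluripotency genes, more were called higher than lower. In 4OHT against cAMP 5 rose and 1 fell (median 0.25), for PD+LY relative to 4OHT 6 rose and 1 fell (median 0.20), and relative to cAMP 8 rose and 2 fell (median 0.76), beside 4.04%, 10.7% and 12.1% of all genes that rose and 4.35%, 12.1% and 13.7% that fell. Tbx3 and Prdm14, repressors that act in naive cells, rose in 4OHT against cAMP (log2 fold change 1.16, edgeR adjusted p = 6.39e-05, and 0.74, adjusted p = 0.00414). Dppa3 (Stella), which guards the early embryo's methylation, and Klf2 rose in PD+LY against 4OHT (1.63, adjusted p = 1.48e-06, and 0.80, adjusted p = 0.000903). The orphan receptor gene Nr0b1 fell in all 3 comparisons (−0.74, −0.69 and −1.43, adjusted p = 0.0121, 0.00824 and 5.27e-05).

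**Figure D4:**
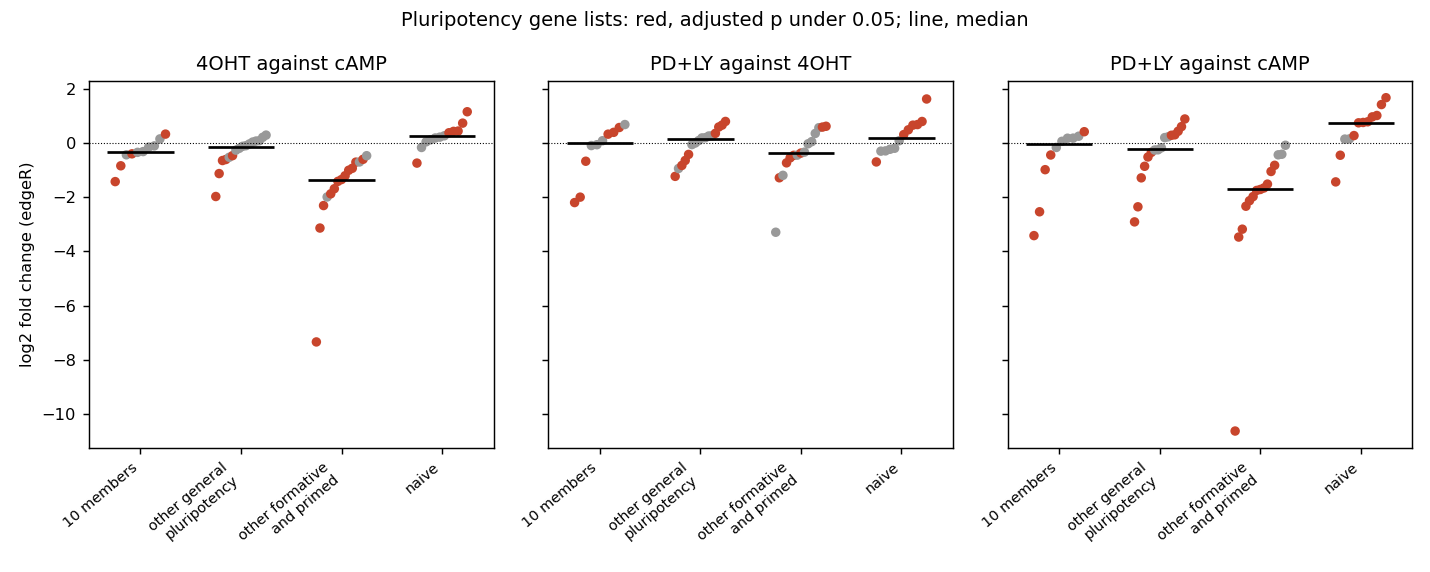
edgeR log2 fold changes of the 10 genes and of the other tested genes of 3 pluripotency lists, 1 point a gene, red at adjusted p under 0.05, with a line at each median. The medians of the other formative and primed genes lie at −1.34, −0.37 and −1.71 and those of the naive genes at 0.25, 0.20 and 0.76. The lowest point of each panel is Cer1, whose fitted value is no measure of size because both its 4OHT and PD+LY libraries are at or near 0 reads.

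Because the 10 genes are also expressed outside pluripotent cells, markers of the other cell types were read beside them. Their counts stand beside the shares of all genes given above (4.04% higher and 4.35% lower in 4OHT against cAMP, 10.7% and 12.1% from 4OHT to PD+LY, 12.1% and 13.7% from cAMP to PD+LY), and in lists this short 1 or 2 calls are near those shares. Of 13 neural progenitor markers that passed the filter, 1 rose and 2 fell in 4OHT against cAMP. Relative to 4OHT, 2 rose and 3 fell under PD+LY, and relative to cAMP 3 rose and 7 fell, while the sum of all 15 was 109.5 to 109.8 CPM in cAMP, 93.6 to 98.3 in 4OHT and 93.5 to 105 in PD+LY. Nes made up 24.4% to 41.8% of this sum. The other 14 summed to 80.4 to 83.0 CPM in cAMP, 67.9 to 68.2 in 4OHT and 57.6 to 61.2 in PD+LY. Among those that fell, Sox1 was at 6.03 and 5.41 CPM in cAMP and 2.13 and 2.52 in 4OHT. Hes5 had 22 and 25 reads in cAMP, 4 and 14 in 4OHT and 0 and 1 in PD+LY. Others rose, En2 in 4OHT against cAMP (log2 fold change 1.37, edgeR adjusted p = 0.0120) and Pax6 and Nes in PD+LY against 4OHT (0.65 and 0.52). En2, Pax6 and Nes were all higher in PD+LY than in cAMP (1.06, 0.69 and 0.51). Of 7 neural crest markers that passed the filter, Twist1 fell in PD+LY against 4OHT (edgeR adjusted p = 0.0439, with 0 calls by DESeq2) and the other two comparisons gave 0 calls by edgeR and DESeq2, and 0 at an unadjusted p under 0.05. Germ cell markers summed to 318 to 342 CPM in cAMP, 579 to 605 in 4OHT and 709 to 716 in PD+LY. The RNA-binding protein gene Dazl made up 16.2% to 47.3% of this. The other 9 summed to 267 to 282 CPM in cAMP, 446 in both 4OHT libraries and 378 to 439 in PD+LY, and so were lower in PD+LY than in 4OHT. Of the 10 germ cell markers 4 rose and 1 fell in 4OHT against cAMP, 3 rose and 3 fell from 4OHT to PD+LY, and 3 rose and 1 fell from cAMP to PD+LY. Dazl rose in each comparison (log2 fold change 1.39, 1.06 and 2.44, edgeR adjusted p = 0.000119, 0.000231 and 4.56e-07). Endoderm markers summed to 479 to 528 CPM in cAMP, 442 to 457 in 4OHT and 558 to 563 in PD+LY, of which Ttr made up 56.3% to 68.3%, with 0 of 10 called in 4OHT against cAMP by edgeR or DESeq2 (3 at an unadjusted p under 0.05), 2 that rose from 4OHT to PD+LY, and 2 that rose and 2 that fell from cAMP to PD+LY. Fibroblast and feeder markers were relevant because the stem cells were kept on mouse embryonic fibroblasts. They summed to 3222 to 3650 CPM in cAMP, 4673 to 4847 in 4OHT and 6212 to 7382 in PD+LY. Fn1, called in no comparison, made up 33.8% to 67.0% of this. The other 9 summed to 1204 to 1311, 2251 to 2373 and 4112 to 4841 CPM. In the comparisons in turn, 4, 4 and 5 of 10 rose while 0, 2 and 2 fell. Those that fell were Thy1 and Pdgfrb, in PD+LY against 4OHT (log2 fold change −0.66 and −1.26) and against cAMP (−0.73 and −1.06). Thyroid markers summed to 1099 to 1649 CPM in cAMP, 563 to 754 in 4OHT and 987 to 1985 in PD+LY, of which Tg made up 91.3% to 94.9%, and of 9 that passed the filter 3 fell in 4OHT against cAMP, 6 rose from 4OHT to PD+LY and 3 rose from cAMP to PD+LY. No gene of these lists was at 0 in all libraries. The sum of the 10 pluripotency genes was 2694 to 2723 CPM in cAMP, 2856 to 2935 in 4OHT and 2845 to 3155 in PD+LY, of which Dppa5a made up 41.5% to 52.8%. The part of any of these cell types in the changes of the 10 genes was not tested.

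The genes whose profiles were most like Pou3f1, the gene that moved the furthest, were ranked by the root mean square difference of log2 CPM. A prior count of 2 was used in the log2 CPM, and each gene was centered on its mean over the 6 libraries. Nearest to Pou3f1 were Nefm, Wnt3a, Depp1, Bcl6b and Slc45a1, at 0.162 to 0.263, with 3 genes within 0.25. Nefm, a neurofilament subunit gene, reached 5.50 CPM in its highest library, and Wnt3a, a Wnt ligand gene of the primitive streak, 0.877 CPM. In their lowest libraries they were at 0.356 and 0 CPM, and the prior count narrows differences between levels near 0 reads. The fitted log2 fold changes of Wnt3a were −5.18 in PD+LY against 4OHT and −6.92 against cAMP, beyond those of Pou3f1 (−1.995 and −3.42).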

How the data were processed

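Total RNA of 6 organoid libraries, 2 in each of 3 groups, was sequenced from a stranded poly(A) kit. After trimming by Trimmomatic, HISAT2 placed the reads on mm10 (GRCm38) and HTSeq, in its unstranded mode, gave the counts for each gene. The values the authors deposited are these raw counts, with no normalization. Versions of HISAT2 and HTSeq and the annotation are not given in the sources used here. Groups were taken from the labels.

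Counts were tested with edgeR 4.0.16 (R 4.3.3) by the quasi-likelihood test, after filterByExpr (minimum count 10, minimum total 15), which left 15256 genes, TMM scaling (CPM throughout), 1 model of all 6 libraries and Benjamini-Hochberg adjustment. DESeq2 1.42.0, other scalings, filters, a replicate block and leaving out each library were the alternatives. With 2 libraries against 2, an exact two-sided permutation test of 1 gene cannot go below p = 0.333, so none was run. RPKM is CPM per kilobase of merged exons in GENCODE M21 (GRCm38), which matched 24366 of 25239 symbols. Similar transcripts were found with BLAST+ 2.17.0. Promoter windows came from RefSeq and were found for 5 of the 10 genes. Those of Pou3f1, Tcf15, Zic2, Dppa4 and Dppa5a are named only. The test was tried on simulated data. Replicates differed beyond counting noise (chi-square per degree of freedom 8.48, 4.63 and 18.4 in cAMP, 4OHT and PD+LY). The 10 genes and all lists were chosen with earlier results of these data known. Named genes were the 10 themselves, the 3 largest called changes of a list in a comparison, the 5 profiles most similar to Pou3f1 (those for Pou5f1 are not reported here), and Braf, Tg, Nkx2-1 and Pax8 as label checks. Nanog, Sall4, Dppa2 and further marker values were added as context after their values were seen.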

Additional observations from a re-analysis of the deposited data

How the results depend on the processing

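The falls of Pou3f1 and Tcf15 in both PD+LY comparisons, of Otx2 in 4OHT and of Utf1 in PD+LY against cAMP, and the rise of Dppa5a in PD+LY against cAMP, were called under every alternative run. Over all 10 genes and 3 comparisons, 177 of the values under other tools, scalings, filters or blocks kept their direction and side of the threshold, 1 call was lost and 2 were gained. Leaving out 1 library lost 19 calls, gained 2 and turned 4 uncalled changes, of which those in PD+LY against 4OHT ran from −0.26 to 0.0642 for Pou5f1 and from −0.15 to 0.0312 for Dppa4 (positive without PD+LY replicate 1), and those in PD+LY against cAMP from −0.10 to 0.22 for Pou5f1 and from −0.25 to 0.63 for Foxd3 (negative without PD+LY replicate 2). A group of 1 library was then assumed to vary like the others. Leaving out 1 library, genes passing as DEGs numbered 164 to 487, 632 to 1176 and 1118 to 1391 (4OHT against cAMP, then PD+LY against each of the others, 4OHT first, with 408, 1107 and 1409 in full), DEGs among the 10 genes 0 to 1, 2 to 3 and 2 to 3, and the 10 genes at adjusted p under 0.05 1 to 4, 2 to 7 and 4 to 5. The cause was not tested. By adjusted p alone, with no fold threshold, 1280, 3469 and 3925 genes passed, and 4, 6 and 5 of the 10.

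The replicate numbers paired the samples by no label. Same-numbered libraries correlated at r = 0.07, 0.21 and 0.06 in their deviations over 15256 genes. These values cannot show whether same-numbered libraries share a differentiation. With a replicate block, 513, 1222 and 1481 genes were DEGs, among them 1, 2 and 3 of the 10, and 4, 6 and 5 of the 10 passed by adjusted p. The added DEG was Utf1 in PD+LY against cAMP (−1.001). Depth limits Foxd3, Tcf15 and Pou3f1, which had 47, 30 and 30 reads in their lowest libraries.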
